A study of Mus musculus with 2 samples.

Results

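The genes described here are the collagen chains and the proteins that modify, fold or cross-link them, 60 of the 27179 genes in the count table of a mouse T cell leukaemia. They were chosen by name: 44 genes whose symbol is a collagen chain, and 16 named genes, namely the prolyl 3-hydroxylases and their partner Crtap, the prolyl 4-hydroxylase catalytic subunits, the lysyl hydroxylases, 4 of the lysyl oxidases and the chaperone Serpinh1. The set was put together after the ratios of Col27a1 and P3h3 between these same libraries were known, so the counts and ratios below are descriptions and support no claim about the set. The leukaemia, ALL65, is a single primary T cell acute lymphoblastic leukaemia (T-ALL) of Vav-tTA;TRE-GFP-shIkaros genotype, in which the Vav promoter drives the tetracycline transactivator in blood cells and the transactivator in turn drives a hairpin RNA against Ikaros, joined to green fluorescent protein (GFP). Recipient mice carrying this leukaemia were left untreated or were given doxycycline (Dox) for 3 days. Dox stops the hairpin, so that the cells make Ikaros from their own gene again. Both groups carry both transgenes. Leukaemia cells were sorted from spleen, as GFPhigh cells in the untreated group and as GFPmid cells in the Dox group, and the gate and the treatment therefore cannot be told apart. The design text speaks of 3 mice per group, while the deposited table holds 1 column of counts per group, so no value has a replicate error and no test was possible.

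Collagens are triple helices of 3 chains with a regular repeat of glycine. New chains are modified in the endoplasmic reticulum before they fold: prolyl 4-hydroxylases make the helix stable at body temperature, prolyl 3-hydroxylases act on few sites, and lysyl hydroxylases prepare lysines for sugar attachment and for cross-links, which lysyl oxidases then make outside the cell. Fibroblasts, bone and cartilage cells are the main makers of fibrillar collagens. Lymphocytes are not known as a large source.

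The libraries held 7477988 counts (untreated) and 14457475 counts (Dox). Ikzf1, the target of the hairpin, stood at 262 CPM without Dox and at 1455 CPM with it, 5.55-fold higher. Here CPM is a count per 1000000 counts of the library, after the library sizes were put on a common scale by the TMM method (trimmed mean of M values). Of 8 T cell markers 7 were measured, that is at 1 CPM or more in the mean of both libraries. The list summed to 4375 CPM without and 4734 CPM with Dox. Log2 ratios of Dox over untreated were above 0 for 3 of the measured markers and below 0 for 4. Cd3d stood at 375 and 316 CPM and Cd8a at 556 and 969.7 CPM. Ptcra, the pre-T cell receptor alpha chain, had 3 and 0 counts. Of 10 fibroblast and stromal markers 2 were measured, and the list summed to 203 CPM without and 214 CPM with Dox. The matrix gene Fbln1 accounted for 167 and 203 CPM of these sums, with a log2 ratio of 0.28 (exact 95% counting interval 0.18 to 0.38). The growth factor receptor gene Pdgfrb stood at 35.3 and 10.5 CPM, 3.30-fold lower with Dox, and Dcn, Lum and Mmp2 had 0 counts in both libraries. Of the 2 measured stromal markers, Pdgfrb thus stood lower, alongside Col27a1, Col1a2 and P3h3 described below, and Fbln1 stood higher. The part of stromal cells in the ratios of Col27a1, Col1a2 and P3h3 was not tested. Of 8 endothelial markers 2 were measured (list sums of 59.9 and 50.1 CPM), with Cdh5, Kdr and Emcn at 0. The measured ones were Eng, at 38.4 and 31.5 CPM, and Egfl7, at 21.3 and 18.3 CPM. Their log2 ratios were -0.29 (-0.50 to -0.07) and -0.22 (-0.51 to 0.07). The part of endothelial cells in the ratios below was not tested. Of 6 smooth muscle markers 1, Tagln, was measured, at 3.68 and 4.08 CPM (list sums of 4.34 and 5.06 CPM), with Myl9 and Rgs5 at 0. Of 6 myeloid markers 2 were measured (list sums of 16.6 and 17.4 CPM), and they differed in direction. Lyz2, the lysozyme gene, held 7.24 CPM without Dox and 1.69 CPM with it, and its log2 ratio was -1.99 (exact 95% counting interval -2.86 to -1.38). Itgam, an integrin chain, held 8.42 and 14.7 CPM, and its log2 ratio was 0.79 (0.39 to 1.23). Like Pdgfrb, Lyz2 stood lower alongside Col27a1 and P3h3, and the part of myeloid cells in their ratios was not tested. B cell and platelet lists summed to under 1 CPM in each library.

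Most collagen genes were silent or close to it. Of the 60 genes, 22 had 0 counts in both libraries, 41 stood under 1 CPM in the mean of both, and 19 were measured: 10 of 44 collagens and 9 of 16 modifying genes. Where a gene has 0 counts, up to 0.395 CPM remains possible without Dox and up to 0.211 CPM with it, and these limits, like all intervals below, cover counting error only. Among the network collagens, which form sheets such as those of basement membranes, 0 of 9 were measured, and the highest counts were 3 untreated (Col4a2) and 4 with Dox (Col4a3 and Col10a1). The neighbouring gene pairs of type IV collagen, Col4a1 with Col4a2, Col4a3 with Col4a4 and Col4a5 with Col4a6, were thus all near or at 0. The type VI genes Col6a1 to Col6a6, which form microfibrils, reached at most 1 count. Of the fibrillar collagens, 4 were at 0 in both libraries: Col3a1, Col5a2, Col5a3 and Col11a1.

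**Figure D1:**
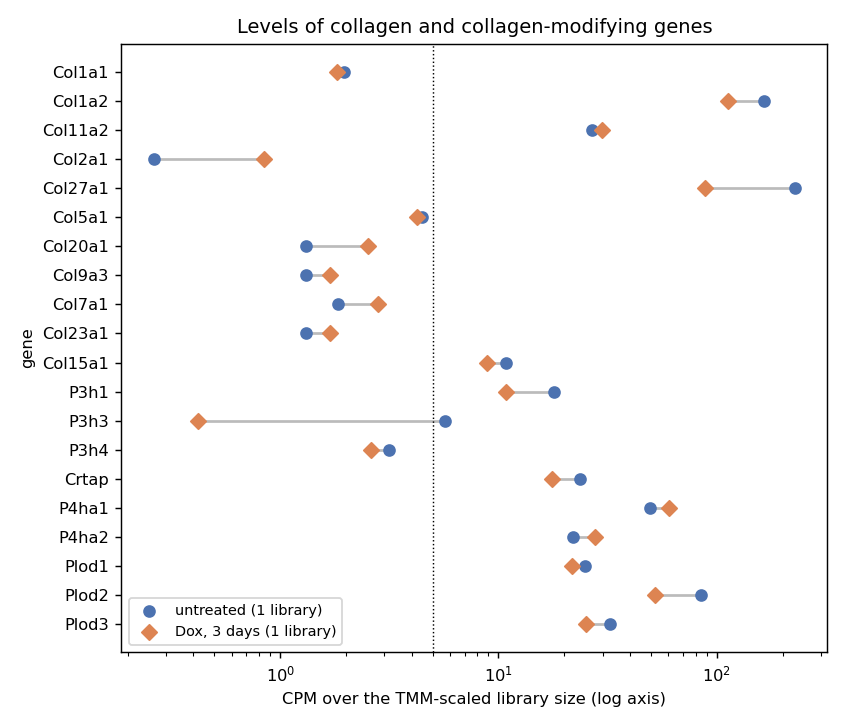
Levels of the 19 measured genes and of Col2a1 in CPM on a log axis, with 1 point per library (circles untreated, diamonds Dox) and a dotted line at 5 CPM. Col1a2 and Col27a1 stand far above the other collagens, and P3h3 shows the widest gap between the libraries.

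Collagen transcripts in these libraries came mostly from 3 fibrillar genes, Col27a1, Col1a2 and Col11a2. Together they held 94.3% of the 3391 collagen counts without Dox (exact 95% interval 93.5 to 95.1) and 89.9% of the 3634 with Dox (88.9 to 90.9). All 44 collagens summed to 446 CPM without Dox and 255 CPM with it. Of these sums, Col27a1 held 229 and 87.9 CPM and Col1a2 165 and 112 CPM. The lower sum is thus not shared by the collagens in general. Of the 10 measured collagens, 5 had a log2 ratio above 0 and 5 below, with a median of 0.04. In bulk RNA, fewer cells that transcribe a gene and less RNA per cell cannot be told apart.

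The stretch of DNA before a start of 3 of these genes is shown, because P3h3 and Col27a1 stood more than 2-fold lower with Dox and Col1a2 is the other abundant collagen. Each is the 250 bases before a RefSeq start in GRCm38.p6, the assembly of mm10, read 5′ to 3′ on the strand of the gene. The Col27a1 window lies inside the span of its gene, which begins at 63214009, so it precedes a start within that span. The P3h3 window overlaps the first bases of its gene, whose span on the minus strand ends at 124857746. Capitals mark GGGAA or its reverse complement TTCCC, the core that Ikaros is known to bind, and the longer TGGGAA or TTCCCA, which contains the former and is known as the core of sites for RBPJ, the DNA-binding partner of Notch.

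P3h3, minus strand, chr6:124857718-124857967: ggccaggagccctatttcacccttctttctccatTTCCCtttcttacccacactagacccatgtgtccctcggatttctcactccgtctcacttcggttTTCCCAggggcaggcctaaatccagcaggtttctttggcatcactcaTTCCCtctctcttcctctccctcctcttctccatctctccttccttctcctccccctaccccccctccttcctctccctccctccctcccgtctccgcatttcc

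Col27a1, plus strand, chr4:63215162-63215411: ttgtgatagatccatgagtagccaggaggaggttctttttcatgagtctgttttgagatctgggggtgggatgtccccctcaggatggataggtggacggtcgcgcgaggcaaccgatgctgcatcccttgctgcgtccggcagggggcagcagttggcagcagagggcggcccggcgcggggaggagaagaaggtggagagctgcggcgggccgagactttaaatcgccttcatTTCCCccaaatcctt

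Col1a2, plus strand, chr6:4505368-4505617: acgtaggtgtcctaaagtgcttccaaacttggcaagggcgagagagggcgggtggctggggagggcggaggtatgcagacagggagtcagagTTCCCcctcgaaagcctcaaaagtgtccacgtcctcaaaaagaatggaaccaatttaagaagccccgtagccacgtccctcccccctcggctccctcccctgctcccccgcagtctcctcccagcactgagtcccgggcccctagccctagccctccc

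The P3h3 window holds 3 matches to GGGAA, all as TTCCC on the strand of the gene, beginning 216, 151 and 104 bases before the start, and the one at 151 extends to TTCCCA. Col27a1 and Col1a2 have 1 match each, also as TTCCC, at 15 and at 158 bases, and no TGGGAA. On either strand, GGGAA occurs in 56.2% of all 32851 windows of this length and TGGGAA in 21.6%. Windows were found for 44 of the 60 genes, 48 windows in all, and 34 of these 48 hold GGGAA (70.8%) and 16 TGGGAA (33.3%). The mean number of GGGAA matches per window was 0.85 over all windows and 1.38 over these 48. The count of 3 is not particular to P3h3. The window of Plod3 also holds 3, and those of Col10a1 and Col4a5, which had few or no counts, hold 4 and 5. The P3h3 window is unusual in base content, with C or T at 78.8% of its positions, as high as or higher than 99.9% of all windows, whose median is 50.0%. Col27a1 stands at 44.8% and Col1a2 at 52.0%. P3h1 has 2 windows, of which the first holds 0 and the second 3 matches to GGGAA. A match describes letters only, and binding was not measured here.

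Col27a1 (Entrez Gene 373864, chromosome 4 from 63214009 to 63334991 in mm10) encodes the chain of type XXVII collagen, a fibrillar collagen of cartilage that forms its trimer from this chain alone. Untreated cells gave 1739 counts and Dox-treated cells 1251, although the Dox library was the deeper one. In CPM this is 229 against 87.9, 2.60-fold lower with Dox, with a log2 ratio of -1.38 (-1.49 to -1.27). Bounds in parentheses after log2 ratios are exact 95% counting intervals. Col27a1 had the 140th lowest ratio of the 10113 genes that reached 5 CPM in either library. Among the 1911 genes with over 1000 counts in both libraries, 2 had a lower ratio. Genes that fell below 1000 counts with Dox are left out of these 1911.

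Col1a2 (Entrez Gene 12843, chromosome 6 from 4505618 to 4541543) encodes the second chain of type I collagen, the main collagen of bone, skin and tendon. It held 1256 and 1593 counts, 165 CPM without Dox and 112 CPM with it. The log2 ratio of -0.56 (-0.67 to -0.45) corresponds to 1.48-fold lower with Dox. Its partner Col1a1, the chain that makes up most of a type I trimer and can also form trimers without Col1a2, had only 15 and 26 counts, 1.97 and 1.83 CPM. Per length of gene, Col1a2 stood 76.7-fold above Col1a1 without Dox (46.3 to 137) and 56.1-fold above it after Dox (38.1 to 86.1). The counting error of these wide bounds comes from Col1a1, and the intervals of both libraries overlap. Both libraries thus held Col1a2 transcripts with few of the transcripts of the partner chain, and which cells these came from was not tested.

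Col27a1 and Col1a2 stood close to each other without Dox and apart with it. In CPM per kb of gene length, Col27a1 was at 30.0 without Dox and 11.5 with Dox, and Col1a2 at 32.1 and 21.8. The ratio of Col27a1 to Col1a2 per length was 0.933 (0.867 to 1.0) without Dox and 0.529 (0.491 to 0.57) after Dox. These intervals do not overlap, but they cover counting error only. The low ratio of Col27a1 was also known before the set was made. Nothing is therefore read from this gap or from the shares of Col27a1 that follow. Col27a1 took 51.3% of the collagen counts without Dox (49.6 to 53.0) and 34.4% with Dox (32.9 to 36.0).

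Col11a2, the second chain of type XI collagen of cartilage, was at nearly the same level in both libraries, with 203 and 423 counts and 26.7 and 29.7 CPM. Its log2 ratio was 0.15 (-0.09 to 0.40), so the direction is not resolved at this depth. The other chains of a type XI trimer were at or near 0, with Col11a1 at 0 counts in both libraries and Col2a1 at 2 and 12 counts. For Col2a1 the log2 ratio of 1.20 has an interval from -0.49 to 4.88. Col5a1, which starts fibrils of type I collagen, held 34 and 60 counts, 4.47 and 4.22 CPM, with a ratio of -0.08 (-0.72 to 0.57), while its partners Col5a2 and Col5a3 were among the genes at 0. So within types I, V and XI alike, 1 chain was present well above the rest of its type in both libraries.

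**Figure D2:**
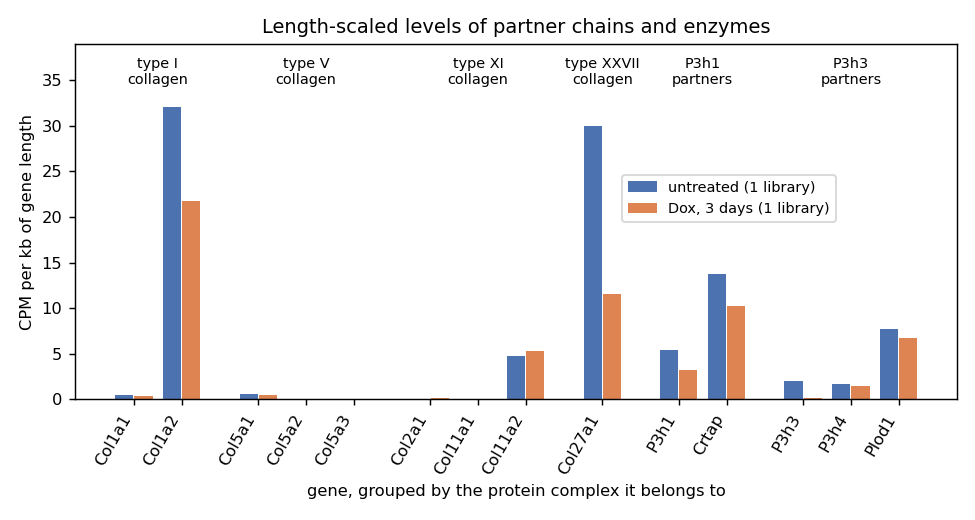
Levels per kb of gene length for collagen chains that share a trimer and for enzymes that share a complex, in bars from 0 (untreated beside Dox, 1 library each). Col1a2 (32.1 and 21.8) stands beside Col1a1 (0.419 and 0.388), Col11a2 beside Col11a1 at 0, and P3h3 stands at 2.04 without Dox and 0.152 with it.

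Outside the fibrillar group, 5 collagens were measured, all at low levels. Col15a1, a multiplexin of the basement membrane zone, was the highest at 10.8 and 8.86 CPM (82 and 126 counts), with a ratio of -0.28 (-0.70 to 0.13). Col7a1, the collagen of the anchoring fibrils of skin, had 14 and 40 counts and a ratio of 0.56 (-0.30 to 1.60). The fibril-associated genes Col20a1 and Col9a3 had 10 untreated counts each and 36 and 24 Dox counts, with ratios of 0.86 (-0.10 to 2.12) and 0.32 (-0.76 to 1.59). Col23a1, a collagen anchored in the cell membrane, had the same 10 and 24 counts as Col9a3. All 5 intervals include 0, so these genes could not be placed as higher or lower. Exons of Col9a3 overlap those of Tcfl5 on the opposite strand over 234 bases, and Tcfl5 itself had 0 and 1 counts.

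Among the modifying genes the one that stood apart was P3h3 (Entrez Gene 14789, chromosome 6 from 124841089 to 124857746), which encodes a prolyl 3-hydroxylase family member and whose pyrimidine-rich start window is printed with that of Col27a1. Its 43 untreated counts and 6 Dox counts correspond to 5.66 and 0.422 CPM. The log2 ratio was -3.27 (-5.27 to -2.51), 9.65-fold lower with Dox. This ratio includes a prior count of 2, and without it the fold was 13.4. P3h3 had the 10th lowest ratio of the 10113 genes that reached 5 CPM in whichever library was higher, a minimum that it passed in the untreated library alone and by a small margin.

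The transcripts of the proteins known to work with P3h3 did not show a drop of this size. P3h4, a family member without enzyme activity that binds P3h3, had 24 and 37 counts, 3.16 and 2.60 CPM, and a ratio of -0.26 (-1.06 to 0.53). Plod1, the lysyl hydroxylase of the helix, with which P3h3 and P3h4 form a complex, had 25.0 and 21.7 CPM and a ratio of -0.21 (-0.47 to 0.06). The interval of P3h3 lies wholly below both of these, but the low ratio of P3h3 was known before the set was made. Nothing is therefore read from this gap or from the ratios per length that follow, whose intervals also cover counting error only. Per length of gene, P3h3 stood at 1.20 times P3h4 without Dox (0.715 to 2.08) and at 0.109 times with Dox (0.0376 to 0.261). P3h2, the remaining enzyme of the family beside P3h1, had 2 counts in each library.

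P3h1, which hydroxylates few prolines of fibrillar chains, works bound to Crtap and to the proline isomerase encoded by Ppib. P3h1 was at 18.0 CPM without Dox and 10.8 CPM with it (137 and 154 counts), with a ratio of -0.73 (-1.08 to -0.39), 1.65-fold lower. Crtap stood at 23.6 and 17.5 CPM (179 and 249 counts), with a ratio of -0.42 (-0.71 to -0.14). In the other direction, Ppib held 73.7 and 93.4 CPM, a log2 ratio of 0.34 (0.20 to 0.49). P3h1 and Crtap were thus lower with Dox, and Ppib, which also serves other proteins, was higher.

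The catalytic subunits of prolyl 4-hydroxylase were the only modifying genes that stood higher beyond counting error. P4ha1 had 376 and 858 counts, 49.5 and 60.3 CPM, and a ratio of 0.28 (0.11 to 0.46). P4ha2 was at 22.0 and 27.6 CPM (167 and 393 counts), with a ratio of 0.33 (0.07 to 0.60). Their shared partner P4hb, a protein disulphide isomerase with many other clients, was level, 311 against 312 CPM, with a log2 ratio of 0.01 (-0.06 to 0.08). P4ha3 had 0 and 4 counts.

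The lysyl hydroxylases were all measured and all had ratios below 0. Plod2, which acts on the lysines at the chain ends, was the highest in level and had the lowest ratio, with 646 and 742 counts, 85.0 and 52.2 CPM and a ratio of -0.70 (-0.86 to -0.55), 1.63-fold lower. Plod3, which also adds sugars to hydroxylysine, stood at 32.5 and 25.3 CPM (247 and 360 counts), with a ratio of -0.36 (-0.60 to -0.12). Exons of Plod3 overlap those of Znhit1 on the opposite strand over 529 bases, 11.7% of its exon bases. Those of Plod2 overlap Gm38391, also on the opposite strand, over 346 bases, 6.42% of its exon bases. Reads from the shared bases of either pair cannot be told apart without a stated strand setting. Per length, Plod2 stood 2.98-fold above Plod1 without Dox (2.53 to 3.52) and 2.11-fold above it with Dox (1.85 to 2.42).

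The genes of the last steps were near 0. The lysyl oxidase genes Lox, Loxl1, Loxl2 and Loxl3, whose products cross-link secreted collagen, had at most 2 untreated and 4 Dox counts each. Serpinh1, the chaperone of folded procollagen known as HSP47, had 1 count without Dox and 0 with it. No fold is given for these genes.

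**Figure D3:**
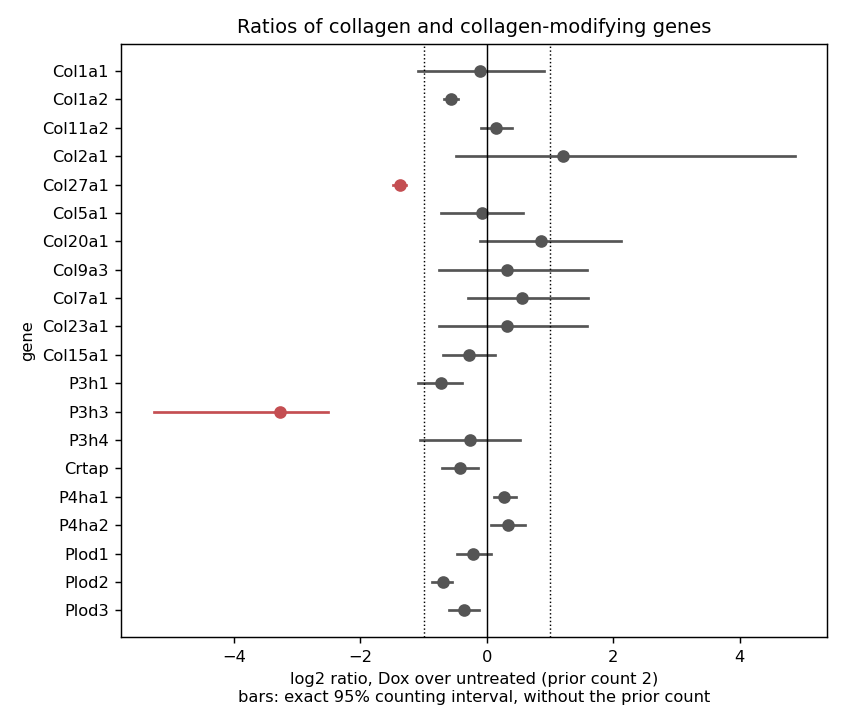
Log2 ratios of Dox over untreated for the same 20 genes, as points with exact 95% counting intervals, dotted lines at 2-fold and the genes past the 2-fold rule in red. Col27a1 (-1.38) and P3h3 (-3.27) lie below the lower line, and the points of the other genes lie between the lines except that of Col2a1 (1.20).

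Over the whole set, 12 genes reached the minimum of 5 CPM, 11 of them in both libraries and P3h3 in the untreated library only. The genes 2-fold lower or more with Dox were Col27a1 and P3h3, beside 2.24% of all 10113 genes, and 0 were at least 2-fold higher, beside 2.21%. Next by ratio were P3h1 at -0.73 and Plod2 at -0.70, 1.65-fold and 1.63-fold lower, and just under the minimum level was Col5a1 at 4.47 CPM. The 4 genes Col27a1, P3h3, P3h1 and Plod2 were at least 1.5-fold lower, beside 6.18% of all genes, and 0 were at least 1.5-fold higher, beside 6.28%. Counting intervals lay wholly below 0 for 7 of the 12, adding Col1a2, Crtap and Plod3, beside 23.8% of all genes, and wholly above 0 for P4ha1 and P4ha2, beside 26.9%. The median log2 ratio of the 12 was -0.392, against 0.012 over all 10113 genes, and over the 19 measured genes it was -0.21, against 0.01 over the 11498 measured genes of the table. Since the same contrast was known when the set was made, nothing is read from these shares and medians.

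**Figure D4:**
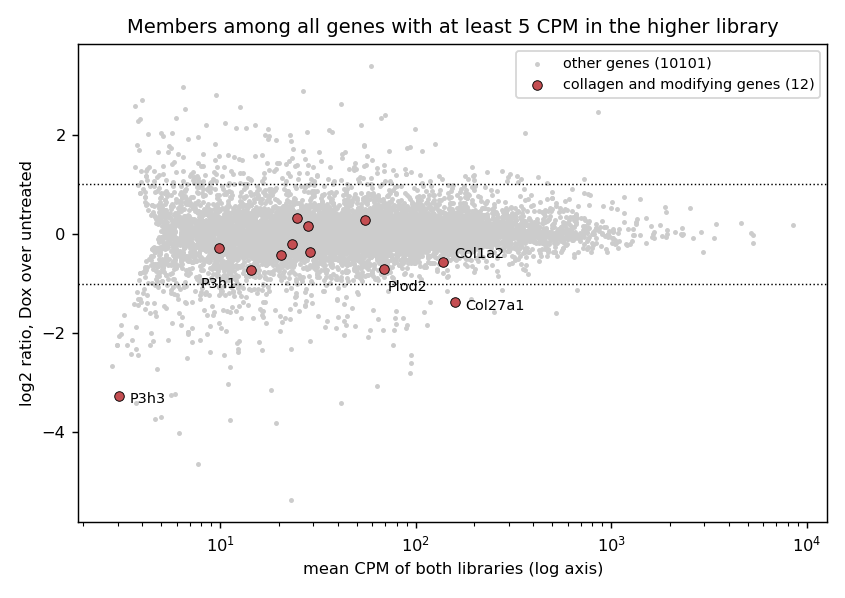
Log2 ratio against mean CPM (log axis) for the genes that reached 5 CPM in either library, with the 12 collagen and modifying genes in red among all others in grey, and dotted lines at 2-fold. Col27a1 and P3h3 lie below the lower line at high and at low mean level.

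Of 49 other genes of collagen handling, from lists outside the set, 28 stood under 1 CPM in the mean of both libraries. The minimum of 5 CPM was reached by 15, of which 5 had a counting interval wholly below 0, 5 one wholly above 0 and 5 one that includes 0. Over all 10113 genes past this minimum, 23.8% had an interval wholly below 0 and 26.9% one wholly above 0. A single gene of the 15 was past 2-fold, on the lower side, beside 2.24% of all 10113 genes lower and 2.21% higher. It was Adgrg1, an adhesion receptor for type III collagen, with 416 and 229 counts, 54.7 and 16.1 CPM and a ratio of -1.75 (-2.00 to -1.53). Of the other collagen receptors, the integrin chain Itgb1, which also pairs for other matrix proteins, held 444 and 287 CPM, a log2 ratio of -0.63 (-0.70 to -0.57). Ddr1, a receptor kinase for collagen, stood at -0.34 (-0.54 to -0.15), and among the partners of Itgb1 for collagen Itga10 was measured, with 29 and 50 counts, 3.82 and 3.51 CPM and a ratio of -0.11 (-0.81 to 0.59). The other such partners were near 0, with Itga1 at 0 counts in both libraries, Itga2 at 0 and 4 and Itga11 at 1 and 2.

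For folding and secretion, 9 of 15 genes passed the minimum and 0 of these were past 2-fold. With 2.24% of all genes 2-fold lower and 2.21% 2-fold higher, so few genes cannot show a difference from these shares. P4hb was level, and Sec31a, a coat protein of transport vesicles, held 201 and 179 CPM, a log2 ratio of -0.16 (-0.25 to -0.07). Of 11 genes of propeptide cleavage and fibril assembly, 0 reached 5 CPM. Within this list, Sparc, a collagen-binding matrix protein, had 31 and 13 counts and a ratio of -1.96 (-3.22 to -1.18), and Pcolce, an enhancer of propeptide removal, had 13 and 24 counts and a ratio of -0.02 (-1.05 to 1.08). Bmp1, the protease that Pcolce assists, had 16 and 8 counts and a ratio of -1.62 (-3.34 to -0.60), and was named after its values were seen. Of 12 genes of breakdown and turnover, 3 passed the minimum and 0 were past 2-fold, again too few to set against the shares over all genes. Timp2, an inhibitor of matrix proteases, held 126 and 154 CPM, a log2 ratio of 0.29 (0.18 to 0.40). Mmp14, a collagenase of the cell surface, held 121 and 133 CPM, a log2 ratio of 0.13 (0.02 to 0.25), and the secreted collagenases Mmp8 and Mmp13 had 0 counts in both libraries.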

How the data were processed

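RNA sequencing libraries of sorted ALL65 leukaemia cells, 1 untreated and 1 after 3 days of Dox, were compared. The authors' deposited tables hold counts, whole numbers of reads per gene without normalization, and a gene length per Entrez Gene number. Per the submitters' processing notes, CASAVA 1.8.2 and featureCounts were used with mm10. Not given in the sources used here are the aligner, annotation, strand setting, treatment of shared reads and how 3 mice and 2 sequencing runs of each RNA became 1 column per group. Symbols came from RefSeq GRCm38.p6 for 25275 genes and from GENCODE M21 for 17 more, and all 60 members were found. Series and library tables differed in 0 values.

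Counts were scaled over the whole table with TMM in edgeR 4.0.16 (R 4.3.3). Log2 ratios used a prior count of 2, scaled to library size, which pulls low genes towards 0. Intervals are Clopper-Pearson at 95% without the prior count. The size rule took genes past 2-fold that reached 5 CPM in either library. No test was run, since each group has 1 library. Named are members with a mean of at least 1 CPM or at least 10 counts in a library, and pathway genes past the size rule or among the 2 highest of their list. Other names were chosen after their values were seen. Members and lists were chosen with earlier results of these data known. The size rule was tested on data simulated with counting error only, which cannot show how it behaves under variation between mice or libraries. Alternatives were DESeq2 1.42.0 size factors, total counts, other prior counts and CPM minimums and the interval bound. Removal of the trend with gene length was added after seeing the data. Python 3.11.15 was used for the rest.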

Additional observations from a re-analysis of the deposited data

How the results depend on the processing

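The 2 members at least 2-fold lower with Dox, Col27a1 and P3h3, were the same with DESeq2 size factors, with total counts, with a prior count of 0.5 or of 5, with a minimum of 1 CPM, with the interval bound in place of the ratio, and after correction for gene length, an alternative chosen after seeing the data. With a minimum of 20 CPM the number lower was 1, Col27a1, since P3h3 is too low. With no minimum it was 5 lower and 4 higher, the additions (Col4a2, Col18a1, Col26a1, Col2a1, Col10a1, Col12a1 and P4ha3) resting on at most 12 counts. Of the pathway genes, 3 were lower with a minimum of 1 CPM, and 3 lower and 5 higher with none. All 100 recomputed ratios of the 20 named members, over 5 alternatives, stayed within their counting intervals and on the same side of 0. For members over 20 CPM in the mean the largest move was 0.05 on the log2 scale. Depth limits the genes under 5 CPM, and P3h3 in the Dox library rests on 6 counts. No paired analysis was possible because each group has 1 library.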
